A study of Danio rerio with 12 samples.

Results

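Keratin and claudin genes were followed in whole zebrafish exposed for 48 h to benzo[a]pyrene (BaP), to diclofenac, or to the mixture of both, each against a Control group. The genes were chosen by symbol alone: every entry of the expression table whose symbol begins with krt (krtcap genes left out) or with cldn (the myelin gene cldnk left out). This gave 80 of 35497 entries, 41 of keratins under 21 symbols and 39 of claudins under 33 symbols. The table lists each transcript class of a gene identifier separately, so a symbol can have several entries. Of the 80 entries, 53 averaged at least 1 CPM (read counts scaled to a common library total, a log2 CPM of 0) and were tested: 24 keratin entries and 29 claudin entries. The other 27, among them all entries of krt93, krt95, krt98, cldn10a, cldn10l2, cldn18 and cldnd, are not described further except where an entry is named. Just inside that limit stood cldng at an average log2 CPM of 0.22 and krt18a.2 at 0.41, and just outside it a retained-intron entry of krt8 at -0.47 in the authors' deposited table. The keratins cyt1 and cyt1l carry other symbols and are not counted.

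BaP, a combustion product, is a ligand of the Ah receptor, and diclofenac is an anti-inflammatory drug that blocks prostaglandin synthesis. The BaP, Diclofenac, Mixture and Control groups had 3 libraries each, 12 in all, called independent replicates in the labels, which give no dose, strain or age. Polyadenylated RNA of the whole body was sequenced. The deposited table holds the authors' own comparisons of each treatment with Control, so values per library, their SD and the depth of each library are not given here. Each error is the standard error (SE), or a 95% interval from it, that the deposited fold changes and likelihood ratios imply. All fold changes against Control below are those of that table. An entry was called when its likelihood ratio p, adjusted by the Benjamini-Hochberg method over all 21622 entries averaging at least 1 CPM, was under 0.05.

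Keratins are the intermediate filament proteins of epithelia. A filament needs a type I and a type II keratin, and the pair changes with the cell type: keratin 8 with keratin 18 in simple, single-layered epithelia, other pairs in the layers of the skin. Filaments are anchored at desmosomes between cells and at hemidesmosomes on the basal lamina. Claudins are membrane proteins that form the strands of tight junctions, and the claudins present set which ions pass between cells. In fish the skin and gills are the barrier to the surrounding water, so both families are known as parts of that barrier. In whole-body RNA, fewer cells of a type and less RNA per cell cannot be told apart.

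With diclofenac the keratins moved in both directions, with entries of krt8, krt18b, krt18a.1, krt96, krt97 and krt4 higher and entries of krt5, krt15, krtt1c19e and krt1-19d lower. The claudins that passed were mostly higher. With diclofenac 8 keratin entries rose and 4 fell, so 12 of 24 (50.0%) were called, where 16.2% of all entries were called (8.52% higher and 7.64% lower). With the mixture 7 keratin entries rose and 4 fell, 11 of 24 (45.8%), against 14.8% of all entries (8.12% higher and 6.67% lower). Claudins were called in 6 of 29 cases (20.7%) with diclofenac, 5 higher and 1 lower, and in 4 of 29 (13.8%) with the mixture, all 4 higher. The claudin shares lay near the background of all entries and the keratin shares above it. The tested keratin entries had a median average of 5.94 log2 CPM, and the share called among entries of like abundance was not counted. With BaP alone 0 of 24 keratins and 0 of 29 claudins were called by the likelihood ratio test, where 0.148% of all entries were; at an unadjusted p under 0.05 there were 3 keratins and 7 claudins, beside 860 of all 21622 entries.

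Among the 24 keratins the median log2 fold change in the authors' deposited table was -0.03 with BaP, 0.31 with diclofenac and 0.24 with the mixture. The same medians over all entries tested were 0.02, -0.01 and 0.02. Keratin entries held 2.42% of the summed average CPM and claudin entries 0.107%, shares of reads that are not scaled for transcript length. The keratin quartiles with diclofenac were -0.70 and 1.17, wider than those of all entries at -0.31 and 0.31. The 29 claudins had medians of -0.10 with BaP, 0.21 with diclofenac and 0.21 with the mixture. Of the claudins, 23 of 29 lay below 0 with BaP and 20 of 29 above 0 with diclofenac, counts that include entries that did not pass. Over all 21622 entries 10221 lay below 0 with BaP and 10705 above 0 with diclofenac.

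**Figure D1:**
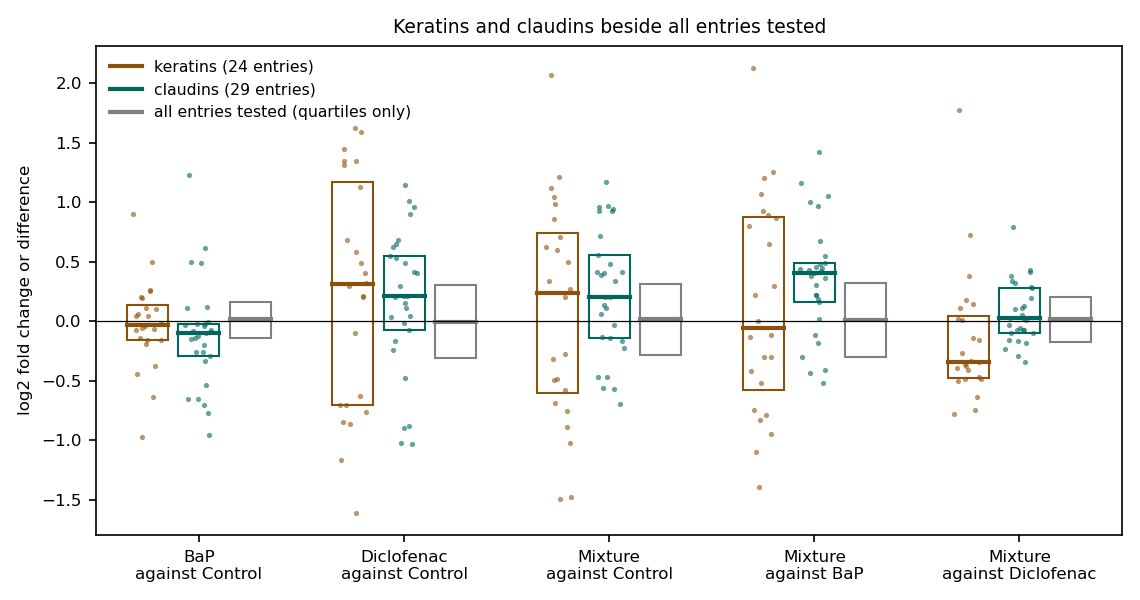
Log2 fold changes against Control and log2 differences between treatments (vertical axis) for the 24 keratin entries and the 29 claudin entries, one point per entry. Boxes run between the quartiles with the median as a thick line, and grey boxes show all 21622 entries tested. The keratin box is widest with diclofenac, from -0.70 to 1.17, and the grey boxes stay within -0.31 and 0.32 in every comparison shown.

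The simple-epithelium pair of keratin 8 and keratin 18 rose with diclofenac and with the mixture. The type II gene krt8 (ENSDARG00000058358) rose by 1.34 ± 0.18 (log2, implied SE) with diclofenac in the authors' deposited table (adjusted p = 5.33e-12, likelihood ratio test). With the mixture krt8 rose by 0.99 ± 0.18 (adjusted p = 1.28e-06, likelihood ratio test), and with BaP its log2 fold change was 0.11 ± 0.18 and did not pass. Its type I partners moved alike: krt18b (ENSDARG00000028618) rose by 1.62 ± 0.17 with diclofenac and by 1.21 ± 0.17 with the mixture in the authors' deposited table. For krt18a.1 (ENSDARG00000018404) the rise was 1.31 ± 0.16 with diclofenac and 1.04 ± 0.16 with the mixture in the same table. Adjusted p for these 4 changes lay between 3.42e-18 and 1.24e-08 (likelihood ratio test). With BaP neither partner passed, at -0.04 ± 0.17 for krt18b and -0.16 ± 0.16 for krt18a.1. The tandem copy krt18a.2 averaged only 0.41 log2 CPM and had a wide interval, -3.25 to 0.93 with diclofenac, and was not called.

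The genes krt96 and krt97 rose with that pair. With diclofenac krt96 (ENSDARG00000095147) rose by 1.59 ± 0.23 and krt97 (ENSDARG00000000212) by 1.35 ± 0.25 (the authors' deposited table; likelihood ratio test, adjusted p = 3.74e-10 and 2.85e-06). The mixture raised krt96 by 1.12 ± 0.23 and krt97 by 0.86 ± 0.25 (the authors' deposited table; likelihood ratio test, adjusted p = 3.87e-05 and 0.00665). Neither was called with BaP, at 0.19 ± 0.23 and 0.06 ± 0.25.

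The most read keratin entry was that of krt4 (ENSDARG00000017624), a type II keratin whose promoter is used to mark the outer skin layer of zebrafish, with an average log2 CPM of 13.72. With diclofenac krt4 rose by 0.68 ± 0.25 in the authors' deposited table (adjusted p = 0.0411, likelihood ratio test), a call that was lost when entries under 1 CPM were included in the adjustment. The mixture gave 0.34 ± 0.25 and BaP 0.04 ± 0.25 for krt4, and neither passed. A rise was also called for krt94 (ENSDARG00000044975) with the mixture, at 0.50 ± 0.15 (adjusted p = 0.0103, likelihood ratio test); with diclofenac krt94 stood at 0.32 ± 0.15 in the authors' deposited table, without passing.

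Other keratins, 4 in number, fell with diclofenac and with the mixture. The gene krt5 (ENSDARG00000058371) encodes a type II keratin that in mammals marks the basal layer of the epidermis. With diclofenac it fell by 0.70 ± 0.20 and with the mixture by 0.68 ± 0.20 (the authors' deposited table; likelihood ratio test, adjusted p = 0.00426 and 0.00629). The type I gene krtt1c19e (ENSDARG00000090268), whose promoter is used to label basal keratinocytes in zebrafish, fell by 0.86 ± 0.23 with diclofenac and by 1.02 ± 0.23 with the mixture (the authors' deposited table; likelihood ratio test, adjusted p = 0.00301 and 3.48e-04). A type I keratin that in mammals also belongs to basal keratinocytes, krt15 (ENSDARG00000036840), fell by 0.84 ± 0.25 with diclofenac and by 1.48 ± 0.25 with the mixture (the authors' deposited table; likelihood ratio test, adjusted p = 0.00729 and 3.22e-07). The type I gene krt1-19d (ENSDARG00000023082) fell by 1.61 ± 0.26 with diclofenac and by 0.89 ± 0.26 with the mixture (the authors' deposited table; likelihood ratio test, adjusted p = 6.82e-08 and 0.00639). With BaP these 4 entries lay on both sides of 0, between -0.38 for krt15 and 0.50 for krt1-19d, and none passed the likelihood ratio test. A second krt15 identifier (ENSDARG00000111896) had -0.64 with BaP and did not pass either.

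**Figure D2:**
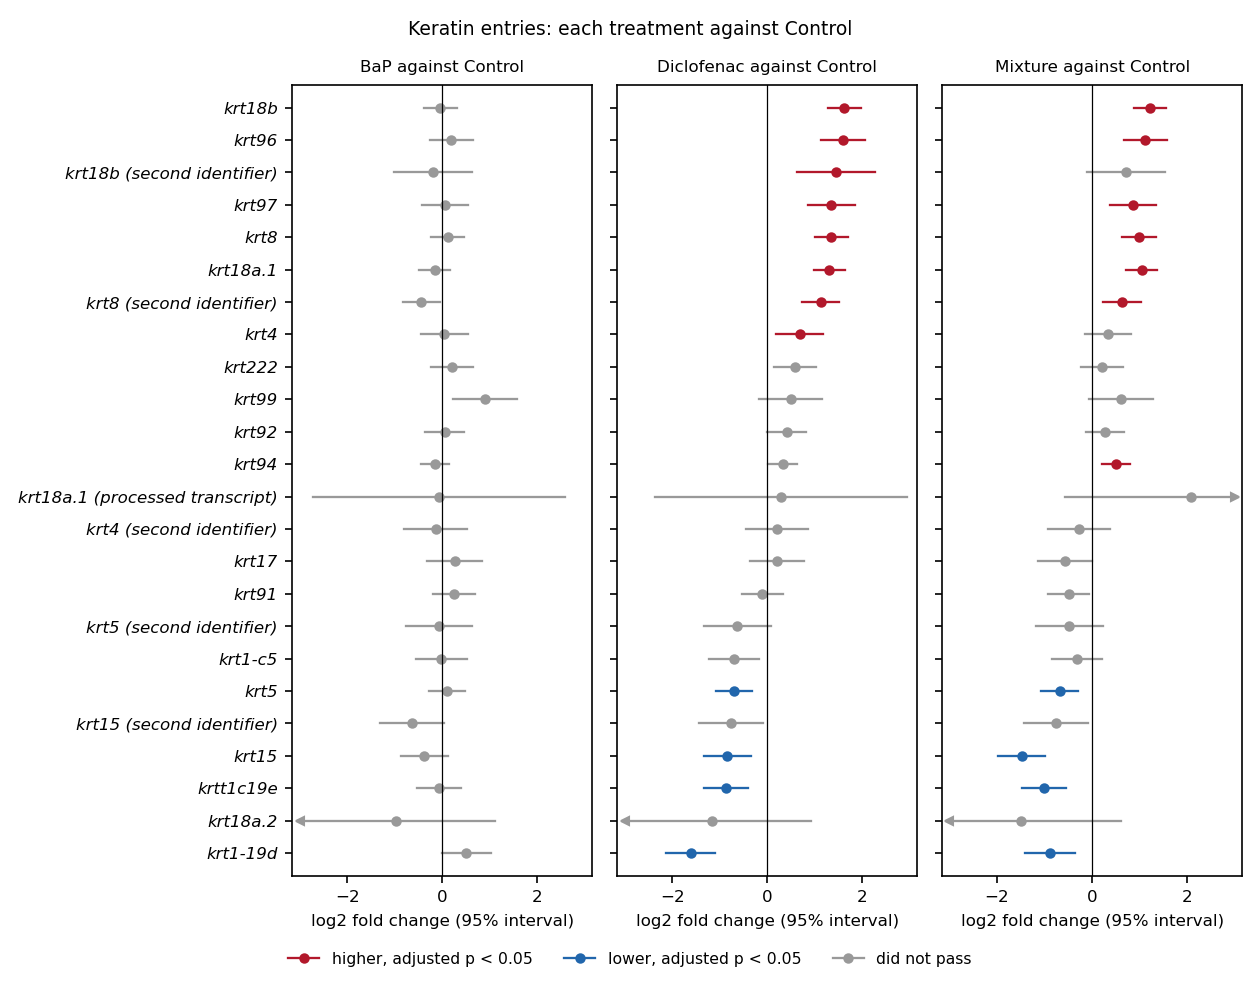
Log2 fold change of each of the 24 keratin entries (horizontal axis) with BaP, diclofenac or the mixture against Control, ordered by the value with diclofenac. Points carry implied 95% intervals, red and blue mark calls at an adjusted p under 0.05, arrowheads mark intervals that run past the axis, and a second identifier is the less read of 2 gene identifiers with one symbol. The more read krt18b entry at 1.62 and krt96 at 1.59 sit at the top with diclofenac, krt1-19d at -1.61 and the uncalled krt18a.2 at -1.16 at the bottom, and the BaP panel holds no coloured point.

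For 5 keratin symbols, krt4, krt5, krt8, krt15 and krt18b, the table holds 2 tested gene identifiers each. Their sequences were not compared here, so how the authors' counting divided reads between them is uncertain, and they are not taken as independent. The second krt8 identifier (ENSDARG00000109279) rose by 1.13 ± 0.20 with diclofenac and by 0.63 ± 0.20 with the mixture in the authors' deposited table. With BaP it stood at -0.44 ± 0.20, where the first identifier had 0.11 ± 0.18. The second krt18b identifier (ENSDARG00000111300) rose by 1.45 ± 0.42 with diclofenac and had 0.71 ± 0.42 with the mixture, which did not pass (adjusted p = 0.269, likelihood ratio test). For krt5 the second identifier gave -0.63 ± 0.36 with diclofenac and for krt15 -0.76 ± 0.34, and neither was called. With the mixture these identifiers had -0.49 for krt5 and -0.75 for krt15 in that table, again not called. The first krt15 identifier had -1.48 with the mixture, so its larger fall there was not seen in the second. The second krt4 identifier had 0.21 ± 0.34 with diclofenac, against 0.68 ± 0.25 for the first. With the mixture the 2 krt4 identifiers differed in sign, at -0.27 ± 0.34 for the second and 0.34 ± 0.25 for the first, and neither passed. Counted by symbol, 10 of 18 tested keratins were called with diclofenac and 10 with the mixture. The share of all symbols called was not counted. By entry, 16.2% of all entries were called with diclofenac and 14.8% with the mixture.

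The remaining keratins passed in none of the comparisons with Control. Of them krt222 had 0.58 ± 0.22 and krt1-c5 -0.70 ± 0.27 with diclofenac (the authors' deposited table; likelihood ratio test, adjusted p = 0.0520 and 0.0592). With BaP the smallest keratin p was that of krt99, at 0.90 ± 0.34 (unadjusted p = 0.00803, adjusted p = 0.831, likelihood ratio test). The genes krt17, krt91, krt92 and the less read entries stood between -1.49 and 2.07 with the mixture, the ends being the lowly read krt18a.2 and a processed transcript of krt18a.1.

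Neighbouring keratin genes changed in opposite directions in some runs and alike in others. In the RefSeq gene order (assembly GRCz12tu, used for names and order only), 41 of the 47 tested symbols were found. There krt5, krt8, krt18a.1 and krt18a.2 form one run with at most 1 other protein-coding gene between members; krt5 fell with diclofenac and krt8 and krt18a.1 rose. In another run krt96 and krt97, which both rose with diclofenac, stand with krt222, which was not called. In a separate run krt4 stands with krt18b, and the more read entries of both rose with diclofenac. A further run holds krt17 and krt91, which were both lower with the mixture than with BaP. A run of 5 holds krt93, krt94, krt98, krt15 and krt99, in which krt15 fell with the mixture and krt94 rose.

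Of the claudins, cldn7b and cldn23a rose with both diclofenac and the mixture. The gene cldn7b (ENSDARG00000014047) encodes a claudin of the claudin 7 type, found in many epithelia. It rose by 0.96 ± 0.16 with diclofenac and by 0.92 ± 0.16 with the mixture (the authors' deposited table; likelihood ratio test, adjusted p = 1.22e-07 and 4.47e-07), and with BaP it had -0.12 ± 0.16. For cldn23a (ENSDARG00000028096) the rise was 1.15 ± 0.20 with diclofenac and 1.17 ± 0.20 with the mixture (the authors' deposited table; likelihood ratio test, adjusted p = 4.08e-07 and 2.49e-07). With BaP cldn23a stood at 0.49 ± 0.20 in the authors' deposited table, without passing (unadjusted p = 0.0128, adjusted p = 0.944, likelihood ratio test).

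Barrier claudins of vessels and brain were called with diclofenac. The gene cldn5a (ENSDARG00000043716), which in zebrafish serves the brain barriers, rose by 0.90 ± 0.29 and its paralog cldn5b (ENSDARG00000014059), of blood vessels, by 0.65 ± 0.19 (the authors' deposited table; likelihood ratio test, adjusted p = 0.0170 and 0.00686). With the mixture they had 0.72 ± 0.29 and 0.48 ± 0.19, which did not pass (adjusted p = 0.0765 and 0.0686, likelihood ratio test). With BaP cldn5a stood at -0.70 ± 0.29 and cldn5b at -0.07 ± 0.19, and neither passed. Beside them, 1 of 6 endothelial markers rose with diclofenac and 0 with the mixture, with medians of 0.45 and 0.14. Of all entries 16.2% and 14.8% were called, so the count of 1 lies near the background. The marker that rose was the endothelial cadherin gene cdh5, at 0.43 ± 0.16 in the authors' deposited table. The part of vessel content in the cldn5a and cldn5b values was not tested.

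The claudin genes cldne, cldnb and cldn17 gave 3 further calls. With diclofenac cldne (ENSDARG00000043128), a claudin of the outermost embryonic layer in zebrafish, rose by 0.63 ± 0.23 in the authors' deposited table (adjusted p = 0.0468, likelihood ratio test), and this call was lost when entries under 1 CPM were included in the adjustment. With the mixture cldne had 0.55 ± 0.23 and did not pass (adjusted p = 0.0928, likelihood ratio test). The epithelial claudin gene cldnb (ENSDARG00000009544), whose reporter line is used to image the lateral line, rose by 0.97 ± 0.28 with the mixture in the authors' deposited table (adjusted p = 0.00711, likelihood ratio test); with diclofenac it had 0.68 ± 0.28 (adjusted p = 0.0769, likelihood ratio test). The mixture also raised cldn17 (ENSDARG00000099950), by 0.94 ± 0.29 in that table (adjusted p = 0.0109, likelihood ratio test), where diclofenac gave 0.53 ± 0.29 and BaP 0.49 ± 0.29. The most read claudin entry, cldni (ENSDARG00000054616), averaged 8.06 log2 CPM and had 0.20 ± 0.19 with diclofenac and 0.40 ± 0.19 with the mixture, neither called.

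The one entry that fell was no claudin in the strict sense: cldnd1a (ENSDARG00000104439) encodes a claudin domain containing protein and fell by 0.88 ± 0.23 with diclofenac in the authors' deposited table (adjusted p = 0.00179, likelihood ratio test). Its paralog cldnd1b had 0.03 ± 0.24. Of the gut claudins, cldn15la, which zebrafish enterocytes express, had -0.90 ± 0.48 and its relative cldn15lb -1.03 ± 0.50 with diclofenac in the authors' deposited table, and neither passed. Their relatives cldn15a and cldn15b lay closer to no change, at -0.17 and -0.24 with diclofenac, and did not pass either. Nor did cldn2, which in mammals forms a cation pore in kidney tubule and gut, at -1.02 ± 0.43 (adjusted p = 0.0839, likelihood ratio test). The genes cldn15la, cldn15lb and cldn2 averaged between 0.57 and 2.09 log2 CPM, and their intervals were wide.

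**Figure D3:**
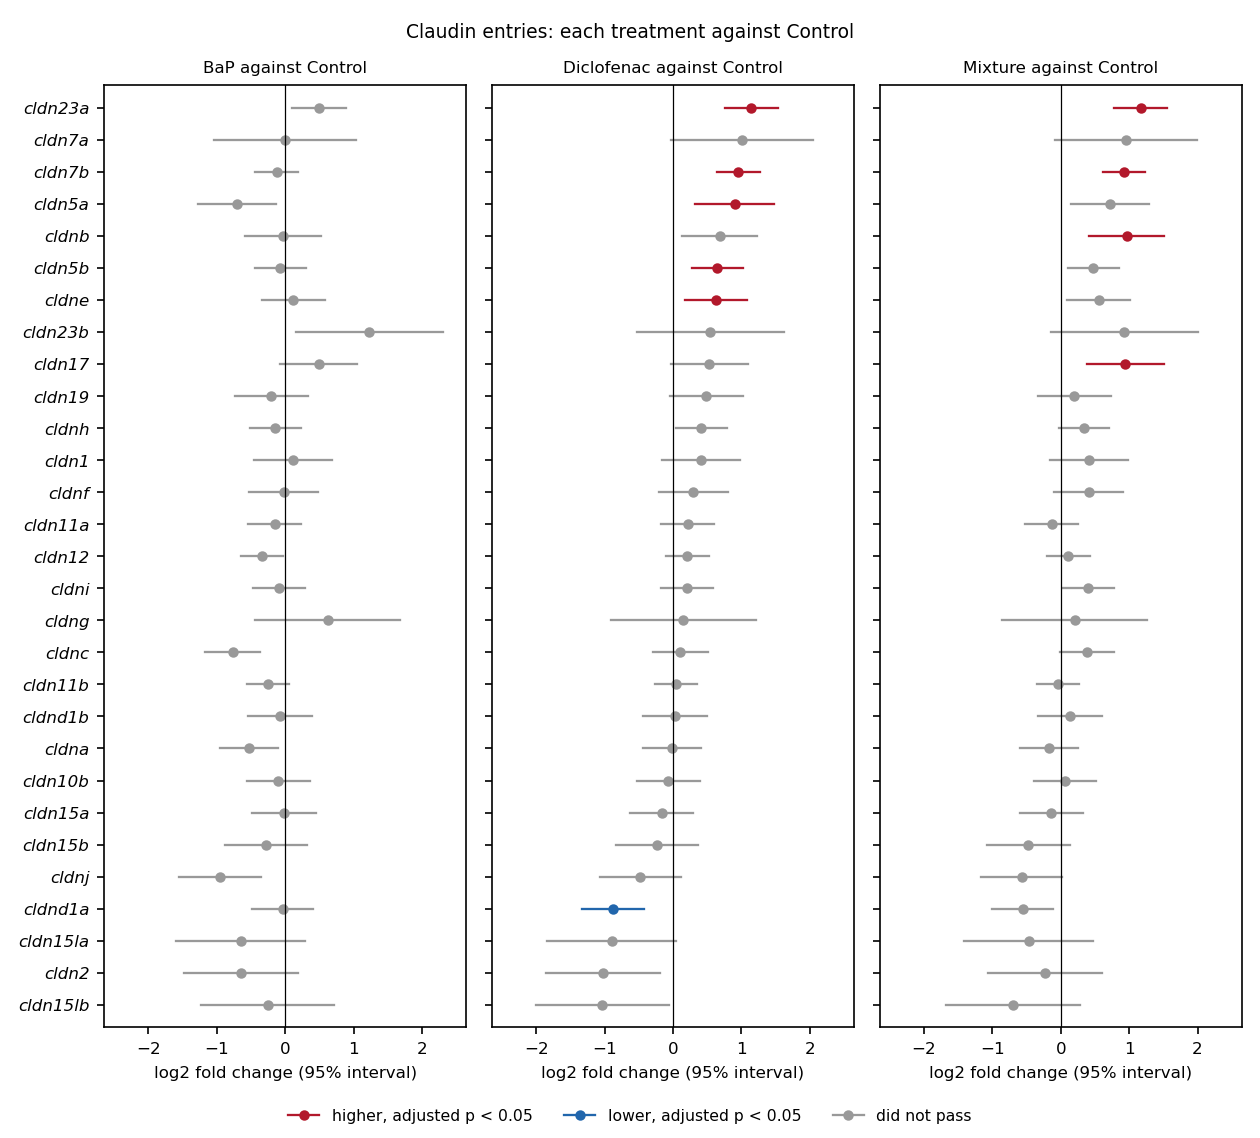
Log2 fold change of each of the 29 claudin entries (horizontal axis) with BaP, diclofenac or the mixture against Control, ordered by the value with diclofenac, with implied 95% intervals. Red and blue mark calls at an adjusted p under 0.05. Diclofenac has 5 red points and 1 blue one (cldnd1a), the mixture 4 red points, and BaP none, although 5 claudins, cldnc and cldnj among them, lie below 0 there with their whole intervals.

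With BaP alone, 7 claudins had an unadjusted p under 0.05, 5 of them lower and 2 higher, and none passed the adjustment; the same threshold took 860 of all 21622 entries. The smallest p was that of cldnc (ENSDARG00000015955), whose log2 fold change was -0.77 ± 0.20 in the authors' deposited table (unadjusted p = 1.36e-04, adjusted p = 0.0701, likelihood ratio test). Next came cldnj, needed for otolith formation in the zebrafish ear, at -0.95 ± 0.30 (adjusted p = 0.365, likelihood ratio test). The genes cldnj, cldne, cldnf and cldna stand in one run of neighbours, in which cldna had -0.53 ± 0.22, cldne 0.12 ± 0.23 and cldnf -0.02 ± 0.26 with BaP in the authors' deposited table.

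The mixture was then compared with BaP alone, which asks what adding diclofenac changed, if the mixture held each compound at its single dose. The test is approximate: a Wald test on the variances implied by the deposited values, assuming equal spread in all groups. Keratins were called in 13 of 24 cases (54.2%), 7 higher and 6 lower, where 16.4% of all entries were called (8.33% higher and 8.12% lower). The highest were krt18b, which differed by 1.25 ± 0.17, and krt18a.1 by 1.20 ± 0.16 (adjusted p = 9.42e-11 and 2.68e-11, Wald test). The lowest were krt1-19d at -1.39 ± 0.26 and krt15 at -1.10 ± 0.25 (adjusted p = 5.86e-06 and 2.96e-04, Wald test).

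Of the keratins, krt17 and krt91 passed in this comparison and in none against Control. The gene krt17 (ENSDARG00000094041), a type I keratin that in mammals is induced in injured skin, differed by -0.83 ± 0.29 between the mixture and BaP (adjusted p = 0.0303, Wald test). Against Control krt17 had 0.26 ± 0.29 with BaP, 0.20 ± 0.29 with diclofenac and -0.57 ± 0.29 with the mixture in the authors' deposited table. For krt91 (ENSDARG00000036830) the difference was -0.75 ± 0.22 (adjusted p = 0.00886, Wald test).

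Claudins were called in 7 of 29 cases (24.1%), all 7 higher with the mixture than with BaP, where 16.4% of all entries were called and 8.33% were higher. The gene cldn5a was higher by 1.42 ± 0.29, cldnc by 1.16 ± 0.20 and cldn7b by 1.05 ± 0.16 (adjusted p = 4.03e-05, 5.50e-07 and 5.28e-09, Wald test). The others were cldnb at 1.00 ± 0.28, cldn23a at 0.68 ± 0.20, cldn5b at 0.55 ± 0.19 and cldn12 at 0.45 ± 0.16. For cldnc the value against Control was 0.39 ± 0.20 with the mixture and -0.77 ± 0.20 with BaP in the authors' deposited table, neither called. The claudin median of this difference was 0.40, against 0.01 for all entries tested.

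The comparison of the mixture with diclofenac alone, which asks what adding BaP changed under the same assumption, gave 0 of 24 keratins and 0 of 29 claudins, where 0.365% of all entries were called. At an unadjusted p under 0.05 (Wald test) there were 7 keratins, 1 higher and 6 lower, and 0 claudins, beside 1589 of all 21622 entries. The smallest p was that of krt1-19d, which differed by 0.72 ± 0.26 (95% interval 0.20 to 1.24, adjusted p = 0.346, Wald test). The next was krt17 at -0.78 ± 0.29 (95% interval -1.35 to -0.21, adjusted p = 0.376, Wald test). The keratin median was -0.34, against 0.02 for all entries, and 16 of 24 keratins lay below 0.

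All 8 keratin entries that rose with diclofenac had lower values with the mixture than with diclofenac, by differences between -0.74 and -0.27. They were chosen for their height with diclofenac, so this is a description. The 95% intervals around the keratin differences had a median half-width of 0.49, and those of the claudins 0.47. These intervals are not adjusted for the number of entries, so a call needed a larger difference than the half-width. The difference of 0.72 in krt1-19d, with an adjusted p of 0.346 (Wald test), was not called. The absence of calls therefore does not exclude differences above these half-widths. For krt8 the interval was -0.71 to -0.01, and for cldn7b, with a difference of -0.03 ± 0.16, it was -0.35 to 0.28.

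**Figure D4:**
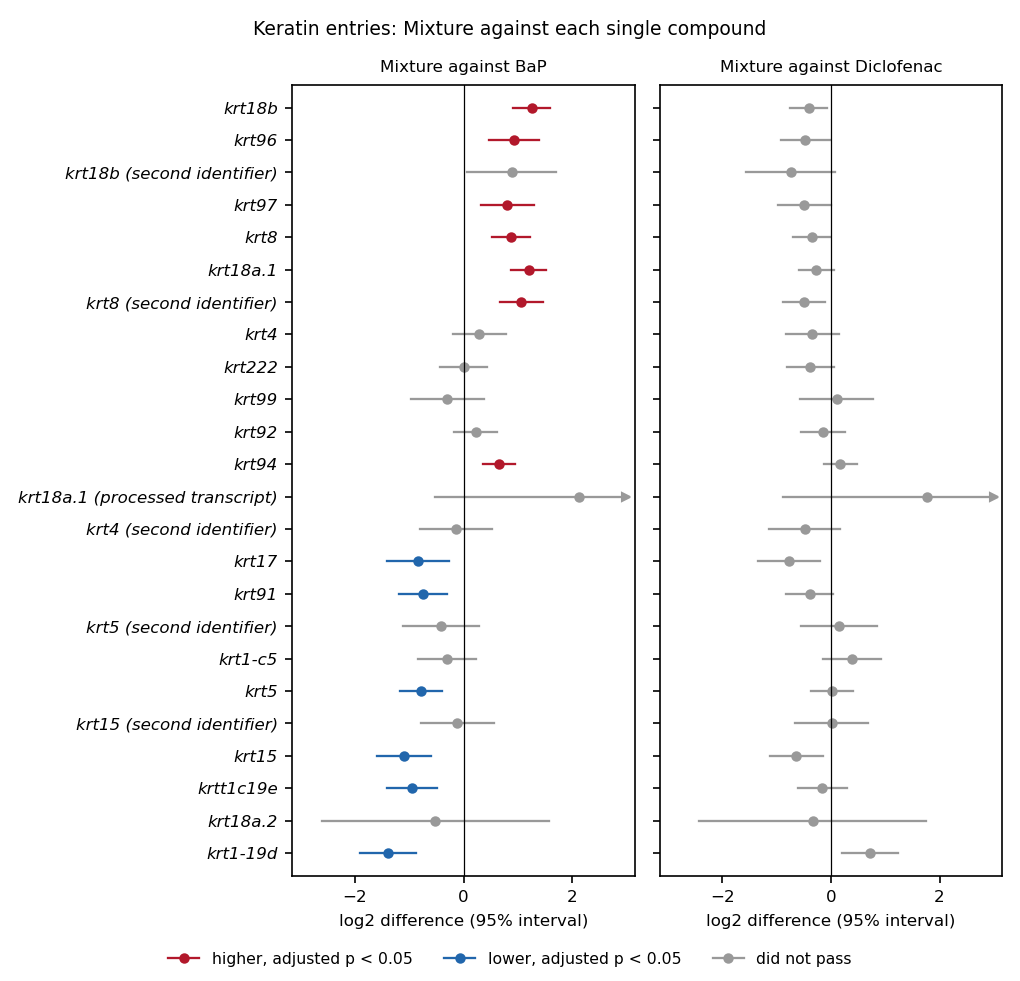
Log2 difference of each of the 24 keratin entries (horizontal axis) between the mixture and BaP and between the mixture and diclofenac, in the order of the diclofenac values, with implied 95% intervals. Colours mark calls by the approximate Wald test at an adjusted p under 0.05. Against BaP 7 entries are red and 6 blue, and against diclofenac none is coloured while 6 entries, those of krt18b, krt8 and krt17 among them, lie below 0 with their whole intervals.

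The interaction takes the fold changes of BaP and of diclofenac away from that of the mixture. It was called in 0 of 24 keratins and 0 of 29 claudins, where 0.0462% of all entries were called. At an unadjusted p under 0.05 (Wald test) there were 3 keratins, all lower, and 3 claudins, all higher, beside 979 of all 21622 entries. The smallest p was that of cldnc at 1.05 ± 0.29 (unadjusted p = 2.42e-04, adjusted p = 0.187, Wald test), and the next among these members that of krt17 at -1.04 ± 0.41 (adjusted p = 0.825, Wald test). Implied SEs of the interaction are larger than those of a single contrast by construction, and the median half-width of the 95% interval was 0.69 for keratins and 0.66 for claudins.

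Genes that work with claudins at tight junctions were higher where they passed against Control. Of 34 measured tight junction partners 8 rose and 0 fell with diclofenac, and 7 rose and 0 fell with the mixture; medians were 0.25 and 0.21. Of all entries 16.2% were called with diclofenac (8.52% higher and 7.64% lower) and 14.8% with the mixture (8.12% higher and 6.67% lower). As for the claudins, the numbers called, 8 and 7 of 34, lie near the background. What differs from it is that all of these calls were higher. The scaffold gene tjp2b rose by 0.75 ± 0.15 with diclofenac and by 0.59 ± 0.15 with the mixture in the authors' deposited table. The tricellulin gene marveld2a, of the corners where 3 cells meet, rose by 0.66 ± 0.16 with diclofenac and by 0.46 ± 0.16 with the mixture in that table. There ildr2, of the angulin family at the same corners, rose by 0.68 ± 0.17 and 0.50 ± 0.17. Of 10 epithelial adhesion and matriptase genes 3 rose with diclofenac and 4 with the mixture and 0 fell, against the same shares of all entries. E-cadherin (cdh1) rose by 0.57 ± 0.13 with diclofenac and by 0.54 ± 0.13 with the mixture, its cytoplasmic link alpha-catenin (ctnna1) by 0.59 ± 0.15 and 0.52 ± 0.15, and the adhesion molecule gene epcam by 0.58 ± 0.22 and 0.73 ± 0.22 (the authors' deposited table).

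Genes for the anchors of keratin filaments at cell contacts were higher where they passed against Control, and those at the basal lamina were called in both directions. Of 18 desmosome and plakin genes 8 rose and 0 fell with diclofenac, and 4 rose and 0 fell with the mixture; medians were 0.43 and 0.20. Over all entries 16.2% were called with diclofenac and 14.8% with the mixture, so the mixture count of 4 lies near the background. Between the mixture and BaP 4 of the 18 were higher and 1 lower, the plectin gene pleca at -0.56 ± 0.16 (adjusted p = 0.00679, Wald test). Of all entries 8.33% were higher and 8.12% lower in that comparison. Between the mixture and diclofenac 1 was called, pkp1b at -0.70 ± 0.18 (adjusted p = 0.0432, Wald test), where 0.365% of all entries were called. Desmoplakin (dspa), which ties keratin to the desmosome, rose by 0.83 ± 0.14 with diclofenac and by 0.60 ± 0.14 with the mixture in the authors' deposited table. The plakophilin genes pkp3b and pkp1b rose by 0.75 ± 0.15 and 0.88 ± 0.18 with diclofenac in that table. Of 15 hemidesmosome and basal lamina genes 2 rose and 1 fell with diclofenac, and 1 rose and 1 fell with the mixture; the median was -0.13 in both, and these counts too lie near the background. The gene that fell was col17a1a, for the collagen that spans the basal membrane of keratinocytes, by 1.48 ± 0.18 with diclofenac and by 1.09 ± 0.18 with the mixture (the authors' deposited table; likelihood ratio test, adjusted p = 7.24e-15 and 2.46e-08). The integrin gene itgb4 rose by 0.52 ± 0.16 with diclofenac in that table.

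Other intermediate filament genes gave 5 of 18 higher and 0 lower with diclofenac and 3 higher and 0 lower with the mixture, where 16.2% and 14.8% of all entries were called (8.52% and 8.12% higher). Between the mixture and BaP 7 of the 18 were called, 4 higher and 3 lower. Of all entries 16.4% were called in that comparison (8.33% higher and 8.12% lower). The 3 lower of the 18 were the neurofilament genes nefla, neflb and nefmb (-0.75 ± 0.25, -0.48 ± 0.17 and -0.51 ± 0.18). Against Control the smallest p were those of desma (desmin, of muscle), at 1.60 ± 0.19 with diclofenac and 1.28 ± 0.19 with the mixture, vim (vimentin, of mesenchymal cells), at 1.63 ± 0.21 and 1.18 ± 0.21, and nes (nestin), at 1.09 ± 0.15 and 0.82 ± 0.15 in the authors' deposited table. Of 9 transglutaminases, the enzymes that cross-link proteins of the skin surface and other matrices, 1 rose and 1 fell with diclofenac and likewise with the mixture, counts near the background of 16.2% and 14.8%. The gene that rose was tgm2l, by 2.23 ± 0.34 with diclofenac and by 1.57 ± 0.34 with the mixture in the authors' deposited table. There tgm2a fell by 0.69 ± 0.21 with diclofenac and tgm1l1 by 0.52 ± 0.15 with the mixture. Between the mixture and BaP 4 of the 9 transglutaminases were called, 2 higher and 2 lower, where 16.4% of all entries were called.

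Of 15 epithelial transcription factors 1 rose and 1 fell with diclofenac, and 3 rose and 1 fell with the mixture, where 16.2% and 14.8% of all entries were called; the diclofenac count is no higher than that. The gene tfap2a, of the AP-2 factors of early skin and neural crest, fell by 0.47 ± 0.15 with diclofenac and by 0.68 ± 0.15 with the mixture in the authors' deposited table. With the mixture klf17, a factor of the embryonic surface layer, rose by 1.11 ± 0.33 and esrp1, an epithelial splicing regulator, by 0.51 ± 0.15 in that table. With BaP 0 genes of these 7 lists were called by the likelihood ratio test.

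**Figure D5:**
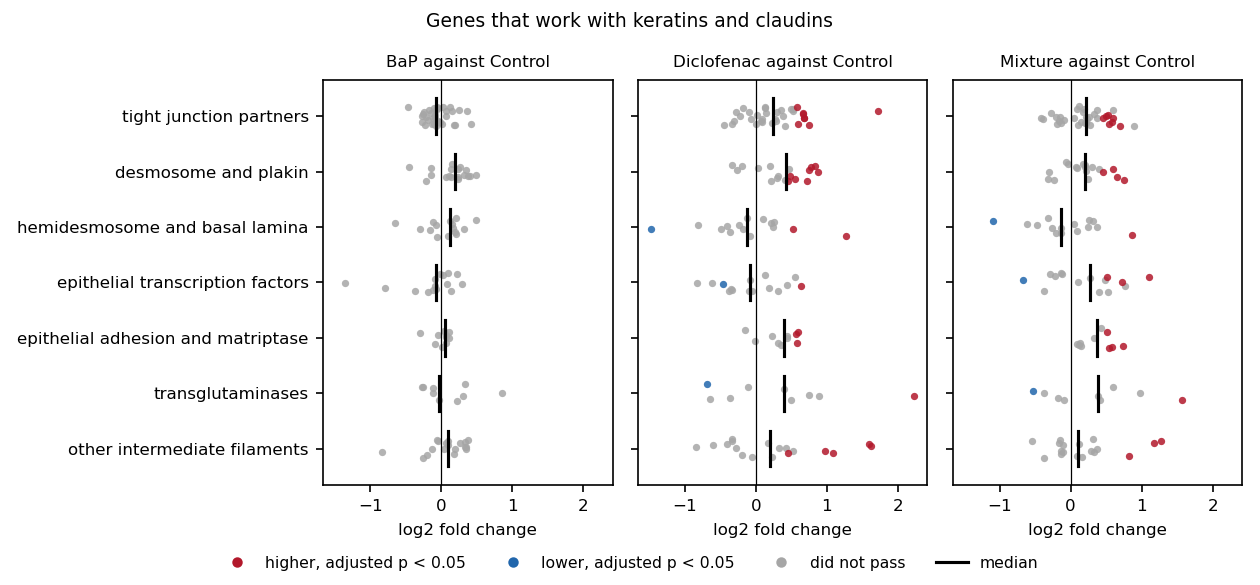
Log2 fold change against Control (horizontal axis) of the genes in 7 lists that work with keratins or claudins, one point per gene, for BaP, diclofenac and the mixture. Black bars mark list medians, and red and blue points calls at an adjusted p under 0.05. Tight junction partners and desmosome genes have red points and no blue one with diclofenac and the mixture, and col17a1a is the blue point at -1.48 among hemidesmosome genes.

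Markers of 8 cell types of the whole body were counted beside the keratins and claudins, and their part in the keratin and claudin values was not tested. All 8 lists had measured members, and with 5 to 9 members each their counts are read against 16.2% of all entries called with diclofenac and 14.8% with the mixture. Muscle markers fell in 4 of 5 cases with diclofenac and in 3 of 5 with the mixture (medians -1.13 and -0.83), with acta1b at -1.99 ± 0.21 with diclofenac in the authors' deposited table. Of 6 leukocyte markers 3 were higher with diclofenac and 1 with the mixture (medians 0.67 and 0.52). Of 9 ionocyte markers 3 rose and 1 fell with diclofenac, 2 rose and 0 fell with the mixture, and with BaP the ammonia channel gene rhcgb rose, by 2.64 ± 0.72 in the authors' deposited table. Of 5 mucous cell markers 1 rose and 1 fell with diclofenac and 0 were called with the mixture by the likelihood ratio test. Of 5 measured enterocyte markers 0 were called with diclofenac, and 2 rose and 1 fell with the mixture. Of 6 hepatocyte markers 1 fell with diclofenac, near the background, and 0 were called with the mixture. Of 6 kidney markers 1 rose with diclofenac and 2 with the mixture, where 8.52% and 8.12% of all entries rose. With 6 members the kidney counts are too small to be placed near or above those shares. With BaP 0 other markers of these 8 lists were called by the likelihood ratio test.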

How the data were processed

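Whole-body polyadenylated RNA was sequenced as paired reads of 150 bp, at a scale of 40 to 80 M reads, per the labels' protocols. Per the submitters' processing notes, GRCz11 was the build and kallisto, edgeR and limma were used; their versions, their order, any filter and the scaling of libraries are not stated there. The authors deposited, for each treatment, a log2 fold change over Control, an average log2 CPM, a likelihood ratio (a score with no fixed range) and a p-value. No log base is stated; base 2 was assumed, since the averages converted back on that base summed to 1.01e+06, close to the total of CPM values. The average was identical in its 3 columns. The deposited p-value matched the chi-square tail of the ratio on 1 degree of freedom to a relative difference of 9.86e-13, so it is unadjusted.

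Computed here, with Python 3.11.15, pandas 2.3.3 and scipy 1.17.1, were the Benjamini-Hochberg adjustment over 21622 entries averaging at least 1 CPM (two-sided, 0.05), SEs, and differences between treatments. The variance of an entry was implied as the squared fold change over its likelihood ratio, taking the largest of 3 (median ratio of largest to smallest 1.03), and doubled for the interaction. These steps were run on simulated data drawn with the same implied variances and equal spread, so the simulation could not check those 2 assumptions. Every p-value depends on how the authors' fit estimated the spread among 3 libraries a group; these are called independent replicates, with nothing on separate tanks or animals, so the spread may be partly technical. Members, gene lists and tests were chosen with earlier results of these data known. Members named are, per family, those called in any comparison (up to 12, by p), the 5 most read, and other members used to describe ranges, which were chosen after their values were seen; of each of 15 lists up to 3 called genes were eligible, 1 of which is not reported here. Of 183 listed genes 167 were measured, 3 through older names; the lists cover tight junction partners, desmosomes and plakins, hemidesmosomes and basal lamina, epithelial transcription factors, epithelial adhesion, transglutaminases, other intermediate filaments and markers of 8 cell types. CPM is not scaled for length, so levels of different genes were not compared.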

Additional observations from a re-analysis of the deposited data

How the results depend on the processing

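The counts of called keratins and claudins were recomputed in all 6 comparisons with no abundance filter, with entries of at least 5 CPM, with protein coding entries only, with 1 entry per symbol, and with fold changes centred on the median of all entries (shifts of 0.02, -0.01 and 0.02). Under these 5 settings every count stayed within 1.5 times its value. The signs of the 53 calls of single entries could not change here. Only the centring alters a fold change, and its shifts were far smaller than the smallest called change of 0.45. With no abundance filter the diclofenac calls of krt4 and cldne were lost. The claudin count with diclofenac stayed at 6 there, because a cldn7a entry (ENSDARG00000115826) averaging only -1.22 log2 CPM was called in place of cldne. Its log2 fold change with diclofenac was 6.18. The cldn7a entry above 1 CPM (ENSDARG00000036376) had 1.01 with diclofenac and was not called. With at least 5 CPM the keratins called with diclofenac numbered 13 in place of 12. The claudins higher in the mixture than in BaP numbered 9 in place of 7. Requiring also the authors' limit of 1.5 on the log2 fold change left 3 keratins and 0 claudins with diclofenac, 0 keratins and 0 claudins with the mixture, and 0 of each for the mixture against BaP, because most called changes are smaller than that limit. Leaving out each replicate was not run, because the table holds no values per library. No paired analysis was possible because the deposited table holds no values per library, although the labels number the replicates. Depth per library is unknown. Implied SEs ranged from 0.15 to 1.35 among keratins and from 0.16 to 0.55 among claudins. The widest keratin SE was that of the krt18a.1 processed transcript, at an average log2 CPM of 1.45, and not that of the least read krt18a.2 at 0.41.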
